A study of Mus musculus with 24 samples.

Results

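Notch signalling genes were examined across 3 brain regions of tumour-bearing and control mice. The members were 10 genes, taken by symbol from a table of 47643 genes: the receptors Notch1, Notch2 and Notch4, the ligands Dll1, Dll4, Jag1 and Jag2, and the target genes Hes1, Hes5 and Hey1. All 10 symbols were found. The animals were male C57BL/6J mice aged 4 months that had been injected with LLC cells, sampled up to about 3 weeks later, or mock-injected as controls. The labels give no full name for LLC, commonly Lewis lung carcinoma, a tumour line of mice, and melanoma is the tumour named in the series title. Neocortex, cerebellum and hippocampus each had 4 LLC libraries (replicates 1 to 4) and 4 control libraries (replicates 14 to 17), 24 in all. The labels call them biological replicates without saying which libraries share an animal, so the p-values measure the spread between libraries.

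Notch receptors are cell-surface proteins that are cut when a ligand on a neighbouring cell binds them. The freed intracellular part enters the nucleus and, with the DNA-binding protein RBPJ, switches on genes of the Hes and Hey families, which are themselves transcriptional repressors. In the adult brain the pathway is known from astrocytes and neural stem cells, where Hes5 is a common readout, and from blood vessels, where Notch4 and Dll4 are largely endothelial genes. All values come from bulk tissue, in which fewer cells of a type and less RNA per cell cannot be told apart.

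Values are TPM, a transcript abundance corrected for length and for the total of the library. The number of reads behind a value is unknown. A library held 14368 to 14847 genes at 1 TPM or more. Genes that mark the cerebellum (Gabra6, Pcp2, Car8, En2 and Zic1) summed to 1602 to 3645 TPM in cerebellar libraries and to at most 32.5 TPM elsewhere. Hippocampal markers (Prox1, Wfs1, C1ql2 and Dsp) summed to 194 to 290 TPM in hippocampus and to at most 150 TPM elsewhere. The cortical genes Tbr1, Cux2 and Neurod6 were not highest in neocortex: their sum lay between 151 and 180 TPM there and between 300.3 and 371 TPM in hippocampus, while cerebellar libraries had 29.4 to 35.0 TPM. Cerebellar LLC replicate 1 stood apart, with its cerebellar markers 1.03 below the control mean on the log2 scale against 0.04 to 0.13 below in the other 3 LLC libraries. Red blood cell genes were far higher in LLC libraries of every region, and their mean log2 value lay 1.39 to 1.46 above the controls in LLC replicate 4 and 2.74 to 3.42 above them in the others.

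Hes5 was the member that fell. It encodes a basic helix-loop-helix repressor and lies on chromosome 4 (mm10, 154960923 to 154962371, plus strand). The 250 bases before its start are shown because they hold the letters TGGGAA, the core that RBPJ recognises, once on each strand (RefSeq, GRCm38.p6, chr4:154960673-154960922, plus strand). Capitals mark TGGGAA and its reverse complement TTCCCA.

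Hes5 promoter: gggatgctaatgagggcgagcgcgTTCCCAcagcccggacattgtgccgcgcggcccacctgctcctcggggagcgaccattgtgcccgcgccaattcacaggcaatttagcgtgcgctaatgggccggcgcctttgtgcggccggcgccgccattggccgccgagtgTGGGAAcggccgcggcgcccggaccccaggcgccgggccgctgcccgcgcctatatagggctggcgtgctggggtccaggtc

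The match on the gene's own strand spans 82 to 77 bases before the start, and the match on the opposite strand spans 226 to 221 bases before it. Of 32851 promoter windows of this length in the table, 7094 (21.6%) hold these letters on either strand. Windows were found for 8 members, and Hes5 was the 1 member of the 8 with a match. Hes1 and Hey1 are the members with no window.

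In neocortex, Hes5 stood at 27.4, 29.6, 24.8 and 25.8 TPM in control replicates 14 to 17. In LLC replicates 1 to 4 it stood at 11.7, 11.6, 12.5 and 21.5 TPM. The groups did not overlap, but LLC replicate 4 lay closer to the controls than to the other LLC libraries. The group means were 26.9 ± 2.10 TPM in controls and 14.3 ± 4.78 TPM in LLC (SD, n = 4 each), a change of -46.8%. On the log2(TPM + 1) scale, used for all tests and fold changes here, Hes5 fell by 0.91 ± 0.16 (SE; limma adjusted p = 0.0157). Leaving out control replicate 15, LLC replicate 1 or LLC replicate 2 raised the adjusted p to 0.0564, 0.0587 and 0.0567, and without LLC replicate 4 the fall was 1.11, with an adjusted p of 4.83e-06 from limma.

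In hippocampus, control replicates 14 to 17 had Hes5 levels of 17.02, 22.71, 20.98 and 18.57 TPM. The LLC libraries held 5.78, 7.98, 8.31 and 12.75 TPM. All 4 lay below all controls, and LLC replicate 4 was again the highest of its group. The mean went from 19.8 ± 2.53 TPM to 8.70 ± 2.92 TPM (SD, n = 4 each), a change of -56.1%, and the log2 difference was -1.14 ± 0.18 (SE; limma adjusted p = 0.0186). The call was lost without control replicate 14, 15 or 16 or LLC replicate 2, with adjusted p-values of 0.0535, 0.0606, 0.0545 and 0.0535.

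The cerebellum had little Hes5, with 2.05, 2.66, 2.33 and 2.73 TPM in controls and 2.74, 2.67, 3.27 and 2.89 TPM in LLC libraries. These ranges overlapped, and the log2 difference of 0.18 ± 0.10 (SE) did not pass (limma adjusted p = 0.315). At this low level the added 1 TPM of the log scale understates fold changes. The difference between regions in the LLC effect was tested directly in 1 fit of all 24 libraries. Hes5 differed between cerebellum and neocortex by 1.09 ± 0.24 (SE; 95% interval 0.59 to 1.59, limma adjusted p = 0.036) and between hippocampus and cerebellum by -1.32 ± 0.24 (SE; interval -1.82 to -0.82, adjusted p = 0.0258).

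Hes5 was 1 of the 10 members called in each of those contrasts, where 0.646% and 0.0936% of all genes were called. Each call was lost in 10 of 16 fits that left out 1 library, with values over the 16 fits of 1.01 to 1.29 and -1.50 to -1.16. Both were lost without cerebellar control replicate 14, 15 or 16. The first was also lost without any neocortical library but LLC replicate 4, and the second without cerebellar LLC replicate 2 or any hippocampal library but control replicate 16 and LLC replicate 4. With same-numbered libraries of the regions taken as pairs, neither passed (limma adjusted p = 0.0673 for the first and 0.138 for the second). With no filter the adjusted p of the first was 0.0638, and in a fit of the 16 libraries of its own regions that of the second was 0.0624 (limma). Between hippocampus and neocortex limma called 0 of the 10 members and 0% of all genes (2 members had an unadjusted p under 0.05), and the interval for Hes5 ran from -0.73 to 0.27.

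The other two targets were called in no region. Hes1, a repressor of the same family, stood at 15.89, 17.29, 14.83 and 15.96 TPM in hippocampal controls and at 13.09, 14.62, 13.62 and 11.22 TPM in LLC. The groups did not overlap, but the difference of -0.27 ± 0.08 (SE) did not pass (limma adjusted p = 0.0976). In neocortex Hes1 ranged from 9.22 to 10.8 TPM in controls and from 9.31 to 11.1 TPM in LLC, and in cerebellum from 6.65 to 8.09 and from 8.01 to 10.2 TPM. The Hes1 value in cerebellum was positive (0.26 ± 0.10 SE, limma adjusted p = 0.158), and its contrast with hippocampus was -0.53 ± 0.12 (SE, limma adjusted p = 0.0893). The signs in hippocampus and cerebellum were those of Hes5. Without cerebellar LLC replicate 4 limma called 2 members in that contrast, Hes1 and Hes5. That fit called 161 of 13879 genes, beside 13 of 13884 in the main fit.

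Hey1, a related repressor first known from heart and vessels, was the most abundant of the 3 targets. Its neocortical levels were 47.8, 48.3, 46.97 and 47.9 TPM in controls and 45.0, 44.1, 45.8 and 45.4 TPM in LLC. Every LLC library lay below every control, by a small margin (-0.08 ± 0.03 SE, limma adjusted p = 0.128). Cerebellar Hey1 spanned 36.4 to 42.9 TPM in controls and 38.1 to 41.4 TPM in LLC, and hippocampal Hey1 36.9 to 44.1 and 40.9 to 44.8 TPM, with overlap in both.

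The ratio of Hes5 to Hes1 within a library was lower in LLC neocortex and hippocampus on average. It was 2.66 ± 0.22 in neocortical controls and 1.45 ± 0.58 in LLC libraries (SD, n = 4 each), and 1.24 ± 0.15 and 0.68 ± 0.31 in hippocampus. In cerebellum it was 0.33 ± 0.07 and 0.32 ± 0.04.

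**Figure D1:**
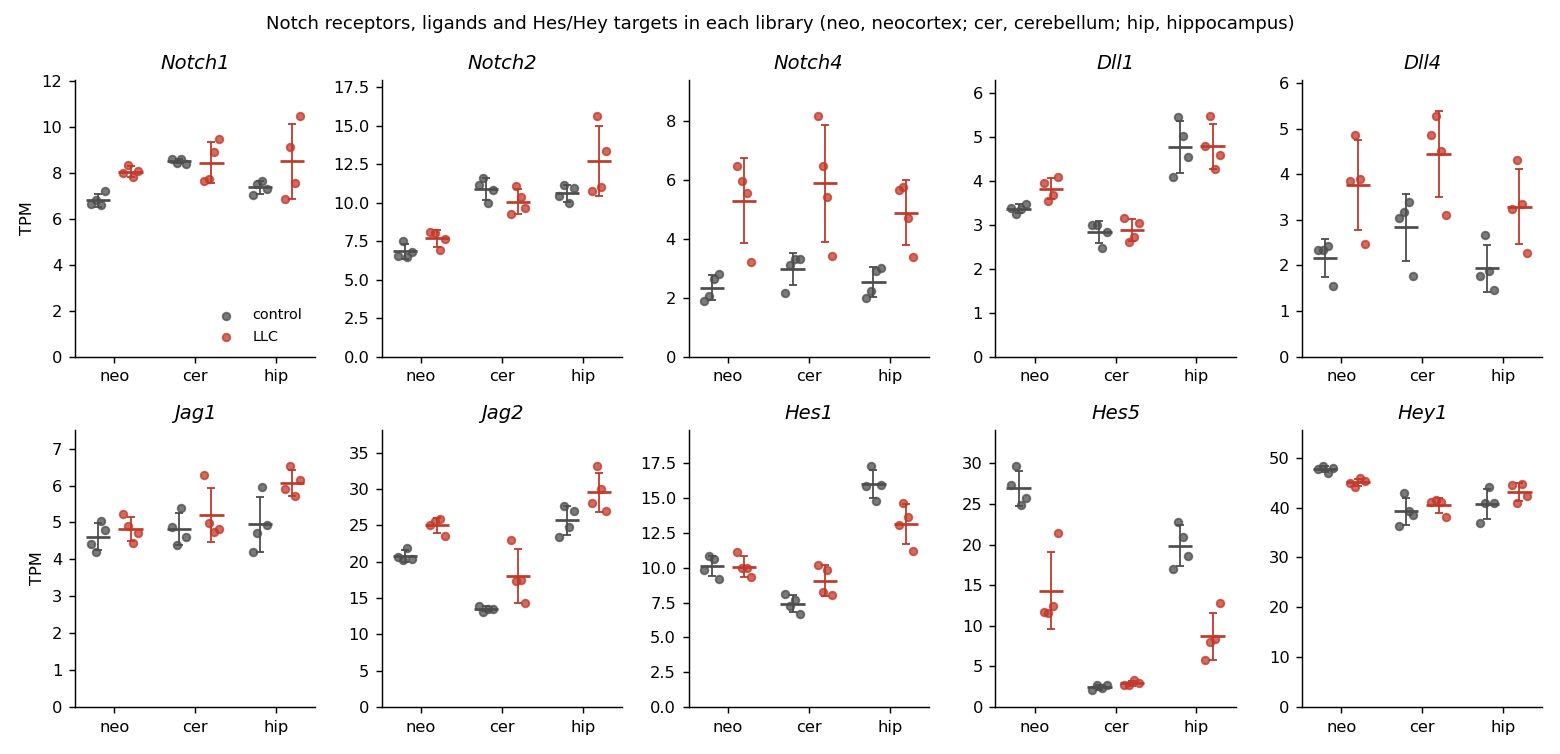
TPM of each member (vertical axes, starting at 0) in each library of neocortex, cerebellum and hippocampus, controls in grey and LLC in red, with lines at the mean and bars of 1 SD (n = 4). Hes5 lies between 24.8 and 29.6 TPM in neocortical controls and between 11.6 and 21.5 TPM in LLC libraries, and Notch4 is higher in LLC than in control libraries of all 3 regions.

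Among the receptors, Notch4 had the widest LLC difference. It is expressed mainly by endothelial cells and lies on chromosome 17 (mm10, 34564268 to 34588503). In neocortex the control libraries held 1.90, 2.04, 2.64 and 2.79 TPM, and the LLC libraries 6.46, 5.95, 5.55 and 3.21 TPM. No library overlapped the other group, and LLC replicate 4 was nearest to the controls. Notch4 rose 2.26-fold in mean TPM and by 0.89 ± 0.17 on the log2 scale (SE; limma adjusted p = 0.0186). Leaving out control replicate 15 or 16 or LLC replicate 1 or 2 ended the call, with adjusted p-values of 0.0619, 0.0511, 0.0648 and 0.0632.

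Hippocampal Notch4 showed the same order, with 1.99, 2.23, 2.92 and 3.01 TPM in controls and 5.67, 5.78, 4.71 and 3.40 TPM in LLC. It rose 1.93-fold in mean TPM and by 0.73 ± 0.16 on the log2 scale (SE; limma adjusted p = 0.0374). This call held in 1 of the 8 fits that left out 1 library, the one without LLC replicate 4. The other 7, without control replicates 14 to 17 or LLC replicates 1 to 3, gave adjusted p-values from 0.0695 to 0.107 and log2 differences of 0.65 to 0.79, and with no filter limma's adjusted p was 0.0754.

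In cerebellum Notch4 measured 2.15, 3.11, 3.31 and 3.30 TPM in controls and 8.18, 6.48, 5.44 and 3.43 TPM in LLC. The groups again did not overlap, and the mean was 1.98-fold higher, but the spread among LLC libraries was wide and the difference of 0.76 ± 0.21 (SE) did not pass (limma adjusted p = 0.0769). Without LLC replicate 4 it was 0.95 with an adjusted p of 0.0121. Without LLC replicate 1, the library low in cerebellar markers, it was 0.60 with an adjusted p of 0.0663. The LLC effect on Notch4 did not differ detectably between regions (interval for cerebellum minus neocortex -0.71 to 0.45, and for hippocampus minus neocortex -0.74 to 0.42).

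Notch1, the receptor of neural progenitors and many other cells, rose in neocortex. Its levels there were 6.64, 6.83, 6.60 and 7.21 TPM in controls and 8.01, 8.34, 7.81 and 8.10 TPM in LLC, without overlap. The rise was 0.21 ± 0.05 on the log2 scale (SE; limma adjusted p = 0.0366), or 18.3% in mean TPM. It passed in 1 of the 8 fits that left out a library, the one without LLC replicate 4, and had adjusted p-values from 0.0586 to 0.107 without any of the other 7. With no filter, quantile scaling or all 24 libraries in 1 fit it did not pass either (limma adjusted p = 0.0713, 0.0506 and 0.155). In cerebellum Notch1 ranged from 8.41 to 8.62 TPM in controls and from 7.65 to 9.50 TPM in LLC, and in hippocampus from 7.03 to 7.65 and from 6.86 to 10.5 TPM. Hippocampal LLC replicates 2 and 4 stood at 9.15 and 10.5 TPM while replicate 3 lay among the controls at 7.55 TPM and replicate 1 below all of them at 6.86 TPM.

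Notch2, another widely expressed receptor, was called in none of the regions (limma adjusted p = 0.174 in neocortex, 0.452 in cerebellum and 0.255 in hippocampus). Its hippocampal LLC libraries were 10.77, 15.64, 11.04 and 13.33 TPM against 9.95 to 11.14 TPM in controls, so replicates 2 and 4 were high for Notch2 as they were for Notch1.

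Dll4, the ligand of endothelial tip cells and arteries, was the ligand with the widest LLC difference. In neocortex it stood at 2.34, 2.33, 2.43 and 1.54 TPM in controls and at 3.85, 4.86, 3.89 and 2.47 TPM in LLC. The groups did not overlap, by a margin of 2.43 against 2.47 TPM. Dll4 rose 1.74-fold in mean TPM and by 0.58 ± 0.16 on the log2 scale (SE), just past the threshold (limma adjusted p = 0.0486), and of the 8 fits without 1 library it passed in the one without LLC replicate 4 (0.0823 to 0.129 without any other). The call was also lost with no filter, median-ratio scaling, quantile scaling or all 24 libraries in 1 fit (limma adjusted p = 0.092, 0.0509, 0.0707 and 0.0649).

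Cerebellar Dll4 was 3.05, 3.16, 3.38 and 1.76 TPM in controls and 4.87, 5.28, 4.50 and 3.11 TPM in LLC. Hippocampal Dll4 was 1.76, 2.66, 1.88 and 1.45 TPM in controls and 3.23, 4.30, 3.35 and 2.27 TPM in LLC. In both regions only LLC replicate 4 fell within the control range. The differences were 0.51 ± 0.18 and 0.54 ± 0.16 (SE), and neither passed (limma adjusted p = 0.126 and 0.0971), while without LLC replicate 4 the adjusted p was 0.0447 and 0.0242.

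Jag2, a ligand of the Serrate type and the most abundant of the 4 ligands, rose in neocortex from 20.6, 20.3, 22.0 and 20.3 TPM in controls to 25.0, 25.6, 25.9 and 23.5 TPM in LLC. The groups did not overlap and varied little within themselves. The change was 0.25 ± 0.05 (SE; limma adjusted p = 0.0159), and it fell short without control replicate 15 or 17 or LLC replicate 1 or 2 (adjusted p = 0.0563, 0.0502, 0.06 and 0.057). With all 24 libraries in 1 fit the adjusted p from limma was 0.107.

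In cerebellum Jag2 was 13.9, 13.1, 13.6 and 13.6 TPM in controls and 23.1, 17.3, 17.5 and 14.3 TPM in LLC. The groups did not overlap, but LLC replicate 1 was far above the rest and the difference of 0.37 ± 0.12 (SE) did not pass (limma adjusted p = 0.112). It was 0.25 without that library (adjusted p = 0.0768) and 0.47 without LLC replicate 4 (adjusted p = 0.0295). Hippocampal Jag2 spanned 23.4 to 27.6 TPM in controls and 27.03 to 33.17 TPM in LLC and did not pass (limma adjusted p = 0.167).

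Jag1 and Dll1, the other two ligands, were called in no region. Jag1, which acts in vessels and progenitors alike, had hippocampal levels of 4.19 to 5.96 TPM in controls and 5.71 to 6.53 TPM in LLC (0.26 ± 0.10 SE, limma adjusted p = 0.161). Its ranges overlapped in the other regions as well, at 4.21 to 5.04 and 4.44 to 5.23 TPM in neocortex and 4.38 to 5.39 and 4.75 to 6.30 TPM in cerebellum. Dll1, a ligand of neuronal precursors, had neocortical levels of 3.39, 3.25, 3.37 and 3.48 TPM in controls and 3.96, 3.56, 3.69 and 4.09 TPM in LLC. These did not overlap, yet the difference of 0.14 ± 0.06 (SE) did not pass (limma adjusted p = 0.175). Dll1 overlapped between groups in cerebellum (2.47 to 3.00 against 2.62 to 3.15 TPM) and hippocampus (4.09 to 5.47 against 4.28 to 5.48 TPM).

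**Figure D2:**
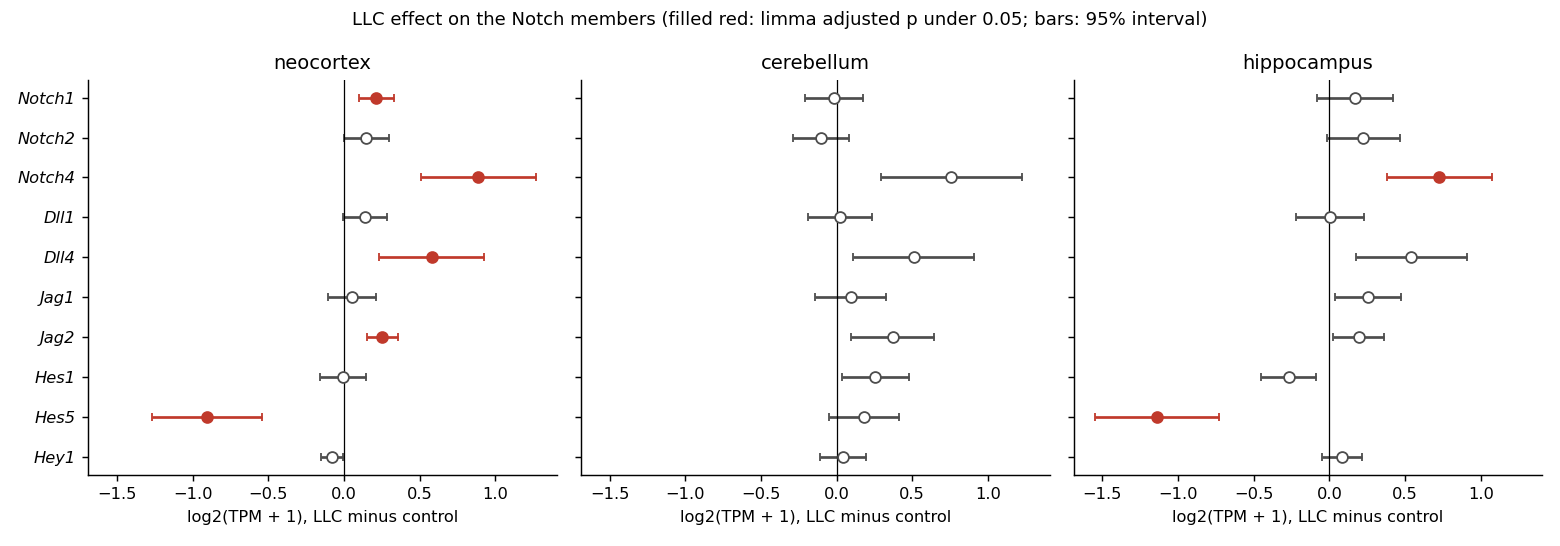
LLC minus control difference in log2(TPM + 1) for each member (horizontal axis), with 95% intervals, in the 3 regions. Filled red points passed limma at an adjusted p under 0.05, which were 5 members in neocortex, 0 in cerebellum and 2 in hippocampus.

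Counted together, 5 of the 10 members passed in neocortex, 4 higher and 1 lower, where 8.54% of all genes passed (5.59% higher and 2.95% lower). In hippocampus 2 of 10 passed, Notch4 upward and Hes5 downward, where 3.61% of all genes passed (2.58% higher and 1.03% lower). In cerebellum limma called 0 of 10 (4 at an unadjusted p under 0.05), where 2.50% of all genes were called and 3563 of 14624 had an unadjusted p under 0.05. The cerebellar count of called members was 3 with library weights (Dll4, Jag2 and Notch4), where 5769 of 14624 genes were called. It was 4 when all 24 libraries shared 1 fit (Hes1 in addition), where 3012 of 14624 genes were called. The fit of all 24 libraries lowered the neocortical count from 5 to 2, with Notch1, Dll4 and Jag2 no longer called. It called 784 of 14485 genes in neocortex. The median difference over the members was 0.14, 0.14 and 0.18 in neocortex, cerebellum and hippocampus, beside 0.01, -0.04 and 0.01 over all genes tested.

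The neocortical count changed with single libraries, as did the number of all genes called. The count was 0 without control replicate 15, LLC replicate 1 or LLC replicate 2, it was 2 without control replicate 16 or 17, 3 without control replicate 14 or LLC replicate 3, and 5 without LLC replicate 4. In the fits with a count of 0, limma called 226 of 14508, 187 of 14475 and 207 of 14482 genes, beside 1237 of 14485 in the main fit. The differences in these fits were -0.86, -0.83 and -0.83 for Hes5 and 0.85, 0.80 and 0.83 for Notch4. The hippocampal count was 0 without control replicate 14, 15 or 16 or LLC replicate 2, it was 1 without control replicate 17 or LLC replicate 1 or 3, and 3 without LLC replicate 4. In the fits with a hippocampal count of 0, limma called 59 of 14653, 57 of 14651, 90 of 14648 and 83 of 14620 genes. The main fit called 529 of 14650. The cerebellar count was 3 without LLC replicate 4, where limma called 1570 of 14619 genes, beside 366 of 14624 in the main fit.

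Summed by role, receptors and ligands were higher and targets lower in LLC neocortex. The 3 receptors summed to 15.1 to 16.8 TPM in control libraries and 19.0 to 22.5 TPM in LLC libraries. The 4 ligands summed to 30.1 to 32.8 and 34.8 to 38.9 TPM. The 3 targets summed to 82.4 to 88.8 and 65.7 to 76.2 TPM, so none of the 3 sums overlapped. No share of all genes without overlap is at hand to set beside this. In neocortex 4320 of 14485 genes had an unadjusted limma p under 0.05. The target mean went from 84.8 to 69.5 TPM, of which most is Hes5 (26.9 to 14.3 TPM), while Hes1 averaged 10.1 TPM in both groups. In hippocampus the receptor sums were 19.4 to 21.3 and 23.3 to 30.6 TPM and the target sums 69.8 to 81.0 and 63.4 to 66.7 TPM, while the ligand sums overlapped narrowly (33.4 to 40.5 and 40.1 to 49.5 TPM). In cerebellum the target mean was higher in LLC (49.1 and 52.4 TPM, with overlapping ranges), the receptor sums were 21.9 to 23.2 and 22.6 to 25.3 TPM, and the ligand sums 22.8 to 24.8 and 25.2 to 37.4 TPM.

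LLC replicate 4 was the LLC library nearest to the control mean for Notch4, Dll4 and Jag2 in all 3 regions and for Hes5 in neocortex and hippocampus. The red blood cell genes were also least raised in the libraries with this number. Whether the 3 libraries come from 1 animal is not given, and the part of blood content in these differences was not tested.

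Markers of endothelial cells moved in the same libraries as Notch4 and Dll4. Of 16 endothelial markers, 13 rose and 1 fell in neocortex (limma), where 8.54% of all genes passed. In cerebellum 2 rose and 1 fell (2.50% of all genes), and in hippocampus 10 rose and 1 fell (3.61%). Their medians were 0.51, 0.27 and 0.42 in neocortex, cerebellum and hippocampus. The marker that fell in cerebellum and hippocampus was Itm2a, by 0.64 ± 0.09 and 0.48 ± 0.07 (SE). In neocortex Kdr, the main VEGF receptor, rose by 1.09 ± 0.15, Pecam1, an adhesion molecule of endothelial junctions, by 0.94 ± 0.12, and Flt1, another VEGF receptor, by 0.85 ± 0.11 (SE; limma adjusted p = 0.00492, 0.00459 and 0.00348). The summed level of the list was 353 to 388 TPM in controls and 430 to 526 TPM in LLC neocortex, 389 to 421 and 397 to 537 TPM in cerebellum, and 276 to 313 and 348 to 393 TPM in hippocampus, with no marker at 0 in all libraries of a group. Mural cell markers rose for 5, 1 and 3 of 10 in neocortex, cerebellum and hippocampus, beside 8.54%, 2.50% and 3.61% of all genes passing in either direction.

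Notch4 lay above the mean shift of the endothelial markers in LLC replicates 1 to 3. Its deviation from the control mean minus that of the endothelial markers was 0.57, 0.48, 0.46 and 0.05 log2 in LLC replicates 1 to 4 of neocortex, against -0.23 to 0.18 in controls. It was 0.73, 0.66, 0.53 and 0.11 in cerebellum (controls -0.34 to 0.16) and 0.51, 0.42, 0.30 and -0.01 in hippocampus (controls -0.22 to 0.24). For Dll4 the same mean deviation was 0.08, 0.26 and 0.12 in the 3 regions, and LLC and control libraries overlapped. On the log2(TPM + 1) scale some single endothelial markers rose more than Notch4, such as Kdr in neocortex (1.09 against 0.89) and in hippocampus (0.83 against 0.73). In cerebellum the largest marker rise was 0.72, against 0.76 for Notch4. At the low levels of Notch4 and Dll4 the added 1 TPM understates fold changes, so these comparisons hold for that scale only. In mean TPM, Notch4 was 2.26-fold, 1.98-fold and 1.93-fold higher in LLC neocortex, cerebellum and hippocampus, and Dll4 1.74-fold, 1.56-fold and 1.70-fold. The part of a larger endothelial share in the Notch4 and Dll4 differences was not tested.

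Markers of astrocytes, a cell type known to express Hes5, changed in both directions in neocortex. There 3 of 12 rose (Aldoc, a glycolytic enzyme, Gjb6, a gap junction protein, and Slc1a3, a glutamate transporter) and 1 fell (Aqp4, the water channel of astrocyte endfeet), where 8.54% of all genes passed. In hippocampus 2 of 12 rose and 0 fell, where 3.61% of all genes passed, and in cerebellum 1 rose and 1 fell, where 2.50% passed. The median over the 12 was -0.04, -0.11 and -0.16 in neocortex, hippocampus and cerebellum. Their summed level was 2589 to 2753 TPM in controls and 2688 to 2930 TPM in LLC neocortex, and 2589 to 2852 and 2558 to 2992 TPM in hippocampus. The Hes5 deviation minus the astrocyte deviation was -1.11, -1.18, -0.98 and -0.40 log2 in LLC replicates 1 to 4 of neocortex and -1.45, -1.14, -1.04 and -0.73 in hippocampus. Control libraries ranged from -0.07 to 0.10 in neocortex and from -0.13 to 0.17 in hippocampus. In hippocampus and neocortex, Hes5 was therefore lower relative to the mean of the astrocyte markers in all 8 LLC libraries. Single astrocyte markers had LLC differences of -0.65 to 0.71 in neocortex and -0.75 to 0.70 in hippocampus. The part of astrocyte content in the Hes5 differences was not tested.

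**Figure D3:**
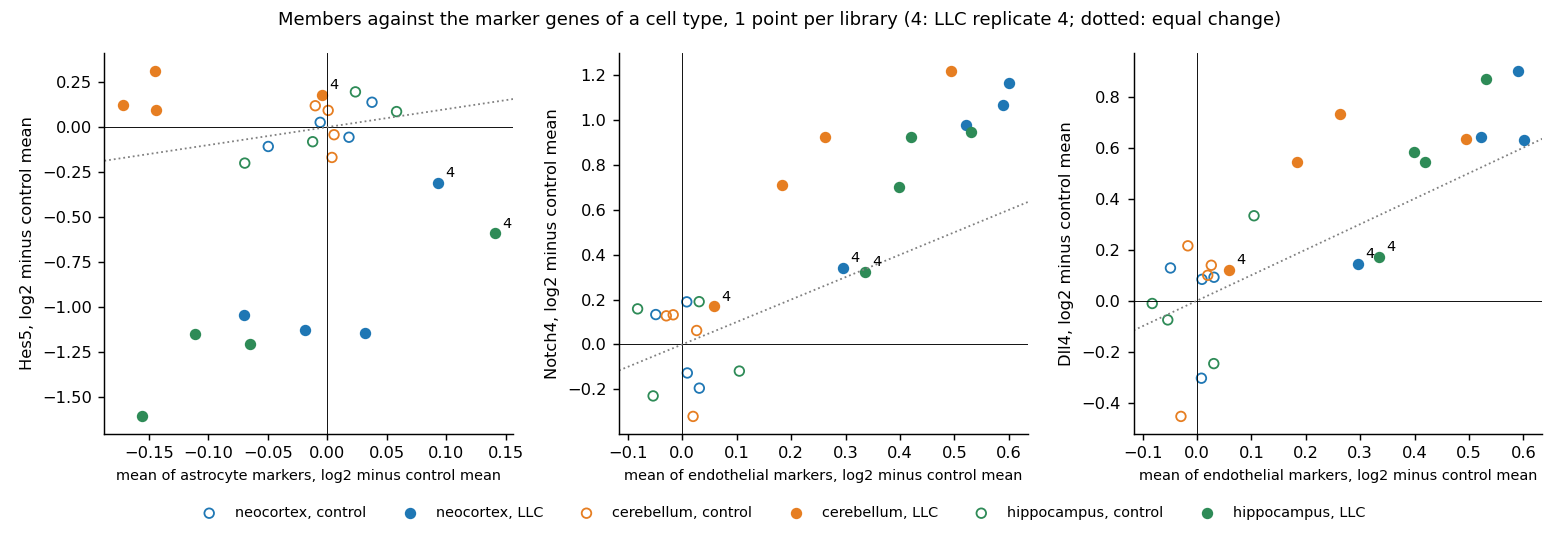
Deviation of Hes5, Notch4 and Dll4 from the control mean of their region (vertical axes, log2) against the mean deviation of astrocyte or endothelial markers (horizontal axes, log2), 1 point per library, open for control and filled for LLC. Hes5 is low in LLC neocortex and hippocampus at astrocyte deviations of -0.16 to 0.14, while Notch4 and Dll4 are high in libraries with high endothelial markers.

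The rest of the pathway was described from 8 lists of 61 genes. In neocortex 58 could be tested, of which 6 rose and 0 fell, where 5.59% of all genes rose and 2.95% fell. The median was 0.06. Notch3, the receptor of pericytes and smooth muscle, rose from 7.39, 6.98, 7.07 and 7.52 TPM in controls to 10.5, 10.9, 9.997 and 8.45 TPM in LLC (0.41 ± 0.07 SE, limma adjusted p = 0.0161), without overlap. Heyl, a target gene of vascular smooth muscle, rose from 3.64 to 5.18 TPM on average (0.42 ± 0.09 SE, adjusted p = 0.0221 by limma). The other 4 were Egfl7, a secreted endothelial protein (0.23 ± 0.05), Pofut1, which adds O-fucose to Notch receptors (0.19 ± 0.05), Epn1, an endocytic adaptor used by ligands (0.25 ± 0.05), and Kat2b, a histone acetyltransferase (0.40 ± 0.09, SE for each).

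None of the rest passed limma in cerebellum (0 of 56, 9 at an unadjusted p under 0.05) or in hippocampus (0 of 59, 13 at an unadjusted p under 0.05). Of all genes, 2.50% passed in cerebellum and 3.61% in hippocampus. An unadjusted limma p under 0.05 was found for 4320 of 14485 genes in neocortex, 3563 of 14624 in cerebellum and 3259 of 14650 in hippocampus. By step, the neocortical rises were 2 of 7 other receptors and ligands, 1 of 5 glycosylation genes, 1 of 6 genes of ligand endocytosis, 1 of 8 of the nuclear complex and 1 of 4 tested other targets. Of the genes for receptor cleavage (10), corepressors (9) and receptor turnover (9), limma called 0 in any region. At an unadjusted p under 0.05 these 3 lists had 2, 4 and 0 genes in neocortex, 2, 1 and 1 in cerebellum and 2, 3 and 0 in hippocampus. Rbpj itself had differences of 0.02, -0.16 and -0.0023 in neocortex, cerebellum and hippocampus (limma adjusted p = 0.823, 0.349 and 0.989). Nrarp, a target that feeds back on the Notch complex, had -0.06, 0.60 and 0.05 (adjusted p = 0.675, 0.0667 and 0.773 by limma).

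**Figure D4:**
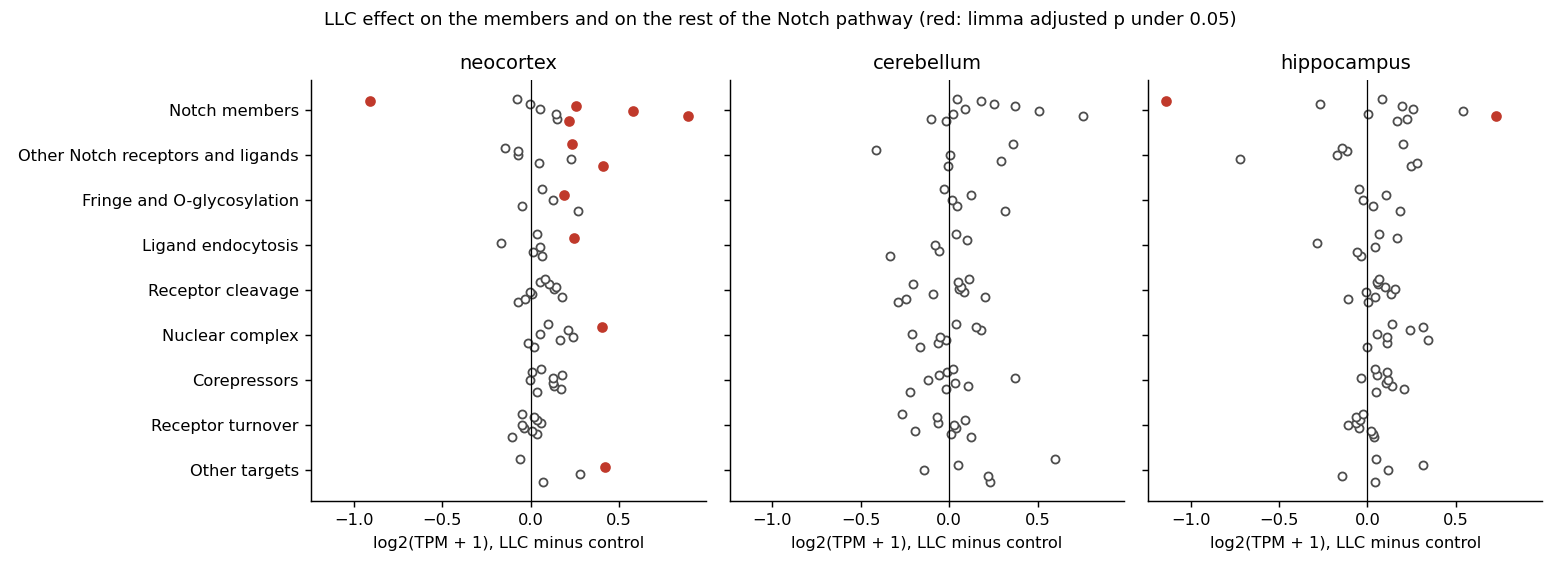
LLC minus control difference in log2(TPM + 1) (horizontal axes) for the 10 members and for the tested genes of 8 lists of other pathway genes (vertical axis), 1 point per gene, red where limma's adjusted p was under 0.05. The members span -0.91 to 0.89 in neocortex, and the 6 called genes of the other lists all lie above 0.

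Across control regions, most members differed, as did most genes. Between control cerebellum and neocortex 7 of 10 members passed in the fit without pairing, where 85.5% of all genes passed. With same-numbered libraries taken as pairs, Notch4 and Dll4 passed as well. Between hippocampus and neocortex 6 of 10 passed (61.8% of all genes), and between hippocampus and cerebellum 5 of 10 (81.9%). Without pairing, the members' shares were therefore below or near the background, and the regional order below is a description of levels.

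Hes5 had the widest regional range. Its control means were 26.9 TPM in neocortex, 19.8 ± 2.53 TPM in hippocampus and 2.44 ± 0.31 TPM in cerebellum (SD, n = 4), and cerebellum differed from neocortex by -3.02 ± 0.08 log2 (SE; limma adjusted p = 3.45e-11). Over all 6 groups its order was control neocortex, control hippocampus, LLC neocortex, LLC hippocampus, LLC cerebellum and control cerebellum. The neighbours whose ranges overlapped were control hippocampus with LLC neocortex, LLC neocortex with LLC hippocampus, and the 2 cerebellar groups. Hes1 was highest in control hippocampus (15.99 ± 1.01 TPM), then in neocortex (10.1 ± 0.74 TPM) and cerebellum (7.41 ± 0.61 TPM), and the ranges of all 3 control groups were apart. Hey1 was at 47.7 ± 0.56 TPM in control neocortex and at 40.7 ± 2.96 and 39.3 ± 2.72 TPM in hippocampus and cerebellum, whose ranges overlapped. The last pair differed by 0.05 log2 (limma adjusted p = 0.476), but by 0.28 and 0.27 under median-ratio and quantile scaling (adjusted p = 0.00139 and 0.000924).

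Jag2 followed the order hippocampus (25.7 ± 1.97 TPM), neocortex (20.8 ± 0.79 TPM) and cerebellum (13.5 ± 0.31 TPM) in controls, with no overlap. Dll1 had the same order at 4.78 ± 0.60, 3.37 ± 0.09 and 2.83 ± 0.25 TPM, also without overlap. Jag1 (4.62 to 4.95 TPM), Dll4 (1.94 to 2.84 TPM) and Notch4 (2.34 to 2.97 TPM) had control means that limma without pairing did not separate in any pair of regions. Other fits did separate them. Jag1 was lower in cerebellum than in neocortex under median-ratio and quantile scaling (-0.218 and -0.175 log2). With same-numbered libraries taken as pairs (the replicate block), Notch4 and Dll4 were higher in cerebellum than in neocortex, by 0.24 and 0.27 (limma adjusted p = 0.0178 and 0.00936). The same was so without cerebellar control replicate 14 for Notch4 (0.35, adjusted p = 0.00887 by limma) and without cerebellar control replicate 17 for Dll4 (0.42, adjusted p = 0.00579 by limma). Dll4 was lower in hippocampus than in cerebellum without cerebellar control replicate 17 or hippocampal control replicate 15 (limma adjusted p = 0.00441 and 0.0172). Notch2 was lower in control neocortex (6.83 ± 0.49 TPM) than in hippocampus (10.6 ± 0.54 TPM) and cerebellum (10.9 ± 0.71 TPM), by 0.57 and 0.60 log2. Notch1 was 0.29 ± 0.05 higher in cerebellum than in neocortex (SE; limma adjusted p = 0.00027), but under median-ratio scaling, which shifts the median of all genes in that contrast by -0.29, the difference was -0.00098.

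Over the 24 libraries, centred within each region, some members varied together. Pearson's r was 0.79 between Notch4 and Dll4, 0.85 between Notch4 and Jag2, and -0.69 between Notch4 and Hes5. These values describe libraries that share the LLC and control contrast and carry no test. Among 12274 genes, those most like Hes5 were Tubb4a (r = 0.91), Hsd17b12 (0.90) and Tubb3 (0.90), where Tubb4a and Tubb3 are beta-tubulins of oligodendrocytes and neurons. Those most like Dll4 were Apold1 (0.92), Itih3 (0.90) and Ndufa4l2 (0.90), and those most like Jag1 were Hapln2, Arhgef10 (0.83 each) and Plcl1 (0.81). Notch1 was most like Mospd3 (0.83), Cul9 and Acot11 (0.82 each), and Hes1 most like Sh2b2 (0.75), Zwint (0.73) and Rab3b (0.71).

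Several members share sequence with genes annotated on the opposite strand, and the strand setting of the counting is not given. Hes5 overlaps Gm20421 over 756 bases, and that gene ranged from 0.109 to 3.08 TPM. Notch1 overlaps 0610009E02Rik over 1488 bases (1.32 to 2.90 TPM) and Dll1 overlaps A930024N18Rik over 1873 bases (1.59 to 2.97 TPM). Dll4 overlaps Gm14207 (at most 0.519 TPM), and Notch4 overlaps Gm20462, which was at 0 in all libraries. The part of such reads in the members' values was not tested.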

How the data were processed

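Bulk RNA of 24 libraries (6 groups of 4) was prepared by Trizol extraction, TruSeq stranded mRNA kit and NovaSeq sequencing, per the labels' protocols. The authors deposited a single table of TPM, mapped to mm10 according to the submitters' processing notes. Aligner, counting tool and annotation: not given in the sources used here. As TPM holds no read numbers, depth and its precision are unknown, and a few abundant genes can lower the values of the rest. Groups came from the titles, and no 2 of 276 library pairs were identical.

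Tests used limma 3.58.1 (lmFit, eBayes with trend) (R 4.3.3) applied to log2(TPM + 1) for the genes that averaged at least 1 TPM, two-sided, with Benjamini-Hochberg adjustment over all genes and a threshold of 0.05. All 10 members passed the filter in every comparison. LLC was compared with control within each region (8 libraries), LLC effects between regions in 1 fit of 24 libraries, and control regions in pairs. The code was tested on simulated data. Coordinates are from GENCODE M21 on mm10 and promoters from RefSeq (GRCm38.p6). Figures used Python 3.11.15 and matplotlib 3.10.9.

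The members and all lists were chosen with earlier results of these data known. All members are named. Of the lists, the passing genes are named, at most 6 per list by p, and for 5 members the 3 genes with the highest correlation. Alternatives were a pseudocount of 0.1, no filter or one at 5 TPM, scaling by median ratio or by quantiles, library weights, wider or narrower fits, replicate blocks and leaving out each library. Same-numbered control libraries of cerebellum and neocortex deviated together (r of 0.114 to 0.263, over 0.1 in 4 of 4 pairs), so for that contrast the title number counts as a pairing, found from the data and not stated in the labels. The main fit did not use this pairing, and values for that contrast come from the main fit unless another setting is named. Some marker genes are not reported here.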

Additional observations from a re-analysis of the deposited data

Results flagged for a closer look

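In 4 of 60 groups of 4 libraries, 1 library lay apart from the other 3, measured as its gap to the nearest library divided by the range of the group, above Dixon's 95% critical value. Chance alone gives about 1 in 20 such groups. Hes5 in LLC neocortex had its highest library, replicate 4, at 21.5 TPM (gap ratio 0.910). Dll4 in control neocortex had its lowest library, replicate 17, at 1.54 TPM (0.883). Jag1 in LLC cerebellum had its highest library, replicate 1, at 6.30 TPM (0.847). Hey1 in LLC cerebellum had its lowest library, replicate 4, at 38.1 TPM (0.874).

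The LLC effect on Hes5 differed between regions by the test of the difference itself, by 1.09 between cerebellum and neocortex and by -1.32 between hippocampus and cerebellum on the log2 scale (limma adjusted p = 0.036 and 0.0258). Each call held in 6 of the 16 fits that left out a library. Both were lost with same-numbered libraries taken as pairs (limma adjusted p = 0.0673 and 0.138).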

How the results depend on the processing

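The number of members called in neocortex (5) was 3 with a filter at 5 TPM, with no filter and with quantile scaling, and 2 with all 24 libraries in 1 fit. Leaving out single libraries gave 0 to 5. Over all genes, limma called 1237 of 14485 in the main fit. The other fits called 1055 of 11427 (filter at 5 TPM), 577 of 22945 (no filter), 1130 of 14485 (quantile scaling) and 784 of 14485 (24 libraries). In cerebellum (0) the number of members was 3 with library weights, 4 with all 24 libraries and 1 with the replicate block by description number (Dll4), and 0 to 3 without single libraries. Over all 14624 genes, 5769 were called with library weights, 3012 with all 24 libraries and 724 with the block, beside 366 in the main fit. In hippocampus (2) the number of members was 1 with a filter at 5 TPM, with no filter and with the description-number replicate block, and 0 to 3 without single libraries. These settings called 502 of 11576 (filter at 5 TPM), 220 of 22716 (no filter) and 179 of 14650 genes (block), beside 529 of 14650 in the main fit. The filter at 5 TPM leaves Notch4 and Dll4 untested in neocortex and hippocampus and Hes5 untested in cerebellum, so that both contrasts of Hes5 with cerebellum were not tested under it. The LLC effect difference between cerebellum and neocortex (1 member) fell to 0 with a filter at 5 TPM, with no filter and with the title-number replicate block, and was 0 to 1 without single libraries. Between hippocampus and cerebellum (1 member) it fell to 0 with a filter at 5 TPM, the title-number block and a fit of 16 libraries, and was 0 to 2 without single libraries. Over all genes, the first contrast had 89 of 13783 called in the main fit. It had 61 of 10811 (filter at 5 TPM), 61 of 21502 (no filter) and 15 of 13783 (block). The second had 13 of 13884 in the main fit, then 3 of 10923 (filter at 5 TPM), 3 of 13884 (block) and 2 of 13884 (16 libraries). The causes of changes other than those from the construction of a setting were not tested.

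Members near 0 changed sign. The LLC difference was -0.00287 for Jag1 in neocortex with quantile scaling and 0.0534 for Hes1 there with library weights. In cerebellum it was 0.0163 and 0.0260 for Notch1 under median-ratio and quantile scaling, 0.0193 for Notch2 and -0.00829 for Dll1 with weights. In hippocampus Dll1 had -0.00453 and -0.0173 under the 2 scalings. Without single libraries the values ran from -0.0494 to 0.0285 for Hes1 in neocortex, from -0.0685 to 0.0246 for Notch1 and -0.0243 to 0.0557 for Dll1 in cerebellum, and from -0.0551 to 0.0603 for Dll1 in hippocampus. Between control regions, median-ratio and quantile scaling gave -0.00098 and -0.0173 for Notch1 and -0.218 and -0.175 for Jag1 (cerebellum minus neocortex), -0.00129 and -0.00673 for Jag1 (hippocampus minus neocortex), and 0.0196 and 0.0282 for Notch1 and 0.178 and 0.207 for Notch2 (hippocampus minus cerebellum). Median-ratio scaling gave 0.00265 for Notch4 in the last contrast. Without single libraries Jag1 ran from -0.00187 to 0.139 for hippocampus minus neocortex and from -0.0505 to 0.0908 for hippocampus minus cerebellum.

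Replicate numbers were not used as pairing in the main fits, that of control cerebellum and neocortex included. Deviations of same-numbered libraries correlated at -0.0956 to 0.625 between regions, over 0.1 in 16 of 24 pairs, with 18 of 24 highest with their own number, and at -0.256 to 0.470 by description number, over 0.1 in 5 of 12. The replicate block gave 4 members in neocortex and 9, 6 and 6 in the control contrasts. With it Hes5 had an adjusted p of 0.0673 (cerebellum against neocortex) and 0.138 (hippocampus against cerebellum) in the LLC effect differences, and Dll4 had 0.0113 for control hippocampus against cerebellum (limma).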
